A study of Mus musculus with 4 samples.

Results

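The genes described are those of the mouse Hox clusters, taken as every gene symbol that consists of Hoxa, Hoxb, Hoxc or Hoxd followed only by digits. There were 39 such symbols among the 24063 symbols in the deposited tables, and for each symbol the transcript with the highest count over the 4 libraries was used. RNA was sequenced from lung endothelial cells (ECs) taken with anti-CD31 magnetic beads from C57BL6 mice (C57BL6J in the study's methods) labelled 8 weeks old and male. The sham-operated group had 2 libraries and the group studied 7 days after pneumonectomy (PNX, the removal of a lung, here the left) had 2 libraries. Cells of 2 mice were pooled for each library, and the labels name no transgene or drug in either group. The comparison asks which Hox genes are expressed in the bead-selected cells of the sham-operated animal and how their levels differ in the lung that grows after PNX.

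Hox genes encode homeodomain transcription factors that give cells along the body axis their positional identity. They lie in clusters in which genes at the 3′ end are used early and towards the head and genes at the 5′ end late and towards the tail, and genes of the same number in different clusters are paralogs of one ancestral gene. Many adult cells keep part of the Hox pattern of the place they came from, and the lung, a foregut organ of the upper trunk, is known for genes of the 3′ parts of clusters A and B. Hoxa5 is the best known of them, since mice without it have malformed airways and lungs, and several Hox genes have been studied in ECs as promoters or brakes of vessel growth.

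The libraries held 50952879 and 45261208 counts (sham) and 46783725 and 41367438 counts (post-PNX) with 1 transcript per gene, of which the Hox genes took between 8380 and 9305 in a library. A count of 3, taken as the floor of detection, corresponded to between 0.0589 and 0.0725 CPM (counts scaled to the library total), which covers counting error only. Although the mice are labelled male, 0 of 44 chromosome Y genes had a count in any library and Xist, the RNA of the silenced X chromosome, had between 29890 and 36875 counts in all 4 libraries. The CD31 gene Pecam1 and the VE-cadherin gene Cdh5 were abundant, with means of 90946 and 110259 normalized counts in sham. Normalized counts are the counts divided by each library's TMM-adjusted size and brought to a common total. The bead-selected cells also carried RNA of other cell types, and 10 epithelial marker genes summed to 428327 and 430705 normalized counts in the sham libraries. In bulk RNA of this kind, fewer cells of a type and less RNA per cell cannot be told apart.

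The following 3 regulatory regions are shown first because their genes recur in the results, namely Hoxa5 with the highest level of all Hox genes, Hoxb4 whose direction depended on the scaling and Hoxd8 with the highest level in cluster D. Each is the stretch of 250 bases before the gene start in RefSeq on GRCm38.p6, read 5′ to 3′ on the strand of the gene. Capitals mark matches to AGGTCA, the core hexamer recognised by nuclear receptors such as the retinoic acid receptors, and to CCAAT, the CCAAT box, each searched on both strands, and the matches do not overlap. The Hoxa5 stretch, chr6:52204588-52204837 on the minus strand, holds CCAAT on the other strand, and the Hoxb4 stretch, chr11:96318017-96318266 on the plus strand, holds AGGTCA on the other strand. The Hoxd8 stretch, chr2:74704365-74704614 on the plus strand, holds AGGTCA and CCAAT on its own strand.
Hoxa5: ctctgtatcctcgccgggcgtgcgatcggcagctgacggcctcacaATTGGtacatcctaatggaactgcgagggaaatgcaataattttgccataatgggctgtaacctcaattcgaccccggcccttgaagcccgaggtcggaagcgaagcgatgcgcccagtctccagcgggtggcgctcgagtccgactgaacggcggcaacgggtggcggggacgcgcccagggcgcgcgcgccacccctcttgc
Hoxb4: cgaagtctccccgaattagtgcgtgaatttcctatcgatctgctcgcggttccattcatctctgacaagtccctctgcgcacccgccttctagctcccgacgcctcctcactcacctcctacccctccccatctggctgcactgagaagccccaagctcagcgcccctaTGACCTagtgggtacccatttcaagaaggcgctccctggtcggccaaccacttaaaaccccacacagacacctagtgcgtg
Hoxd8: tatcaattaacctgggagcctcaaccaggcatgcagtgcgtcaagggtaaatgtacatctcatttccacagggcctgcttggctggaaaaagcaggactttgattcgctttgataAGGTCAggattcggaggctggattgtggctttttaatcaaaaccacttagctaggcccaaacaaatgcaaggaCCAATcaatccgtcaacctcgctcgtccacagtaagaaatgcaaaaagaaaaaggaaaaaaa

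The Hoxa5 stretch had a GC content of 63.6% and 28 CpG dinucleotides, the Hoxb4 stretch 58.0% and 14, and the Hoxd8 stretch 44.4% and 6. Over all 32851 promoter stretches of the same length the median was 52.4% and 6 CpG. Of the 39 Hox symbols, 22 had a promoter in the reference table, and 13 of these belonged to genes with enough counts to be tested. AGGTCA was present in 6 of the 13 (Hoxb4, Hoxc4, Hoxd3, Hoxd4, Hoxd8 and Hoxd10), against 14% of all stretches. CCAAT was present in 8 of the 13, against 33.8% of all stretches. The letters TGATNNAT, a site of Pbx and Hox proteins bound side by side, were present in 2 of the 13 (Hoxa2 and Hoxb8), against 7.68% of all stretches. These matches describe letters in a window and say nothing of factor binding in these cells.

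The Hox clusters also carry microRNA genes, among them those of the miR-10 family. Mir10a lies beside Hoxb4 and within the annotated span of Hoxb3, and Mir10b lies within that of Hoxd4. The mature forms are shown because they share the seed, bases 2 to 8 in capitals, and differ from each other in 1 base. Their RefSeq positions on GRCm38.p6 are chr11:96317186-96317208 and chr2:74726074-74726096, both on the plus strand.
mmu-miR-10a-5p: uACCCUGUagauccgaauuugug
mmu-miR-10b-5p: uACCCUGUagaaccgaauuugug

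These mRNA libraries do not measure mature microRNAs, and only reads counted on the precursor genes can be given. Mir10a had 16 and 11 counts in sham and 5 and 6 post-PNX, a log2 fold change of -1.16 with an adjusted p of 0.042 in edgeR's quasi-likelihood test, which missed the threshold of 0.01 used throughout. Mir10b had at most 1 count in a library.

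In the sham libraries the expressed Hox code was that of the 3′ genes of clusters A and B. Which of the cell types present carried this RNA was not tested. At a level of at least 1 FPKM (a level scaled to transcript length and to the library total) in both sham libraries there were 10 genes, Hoxa2 to Hoxa7 and Hoxb2 to Hoxb5. Hoxa5 stood far above the others at 23.8 and 24.4 FPKM, which was 41.8% of the summed FPKM of all Hox genes. Hoxb5, its paralog and another gene of lung mesenchyme and airway branching, followed at 7.44 and 7.65 FPKM, or 13.1%. The mean level of Hoxa5 was 3.20 times that of Hoxb5, and that of Hoxb5 was 1.82 times that of Hoxb4. For comparison, the median level of all genes tested was 5.03 FPKM in sham, so that only Hoxa5 and Hoxb5 exceeded the median gene.

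Below these came Hoxb4 at 4.23 and 4.05 FPKM, Hoxa3 at 3.83 and 3.95, Hoxb3 at 3.44 and 3.50, and Hoxb2 at 3.12 and 3.45. Hoxb4 is known for its effect on blood stem cells, and Hoxa3 and Hoxb3 for EC migration and capillary formation. The levels of Hoxb3 and Hoxb2 overlapped between the libraries, whereas Hoxb4, Hoxa3 and Hoxb3 did not overlap as neighbours in this order. Hoxa4 (2.71 and 2.84 FPKM), Hoxa2 (2.50 and 2.58), Hoxa6 (1.28 and 1.29) and Hoxa7 (1.20 and 1.19) completed the genes above 1 FPKM. Just below it lay Hoxb6, at 0.856 and 0.859 FPKM, and Hoxd8, at 0.770 and 0.724 FPKM. In the whole order of 21 genes, 7 of the 20 neighbouring pairs had overlapping sham levels, and 6 of these were among the genes under 1 FPKM.

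**Figure D1:**
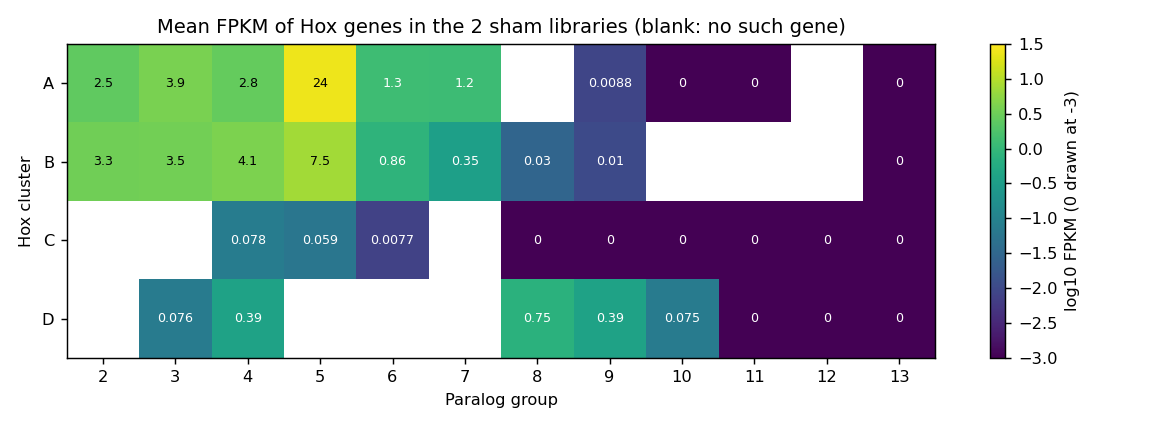
Mean FPKM in the 2 sham libraries for the Hox genes of paralog groups 2 to 13, with the cluster on the vertical axis and the paralog group on the horizontal axis; colour gives log10 FPKM and blank squares are positions with no such gene. Levels of 1 FPKM or more are found at paralog groups 2 to 7 of cluster A and 2 to 5 of cluster B, with 24 FPKM at Hoxa5.

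The grid of sham levels by cluster and paralog group shows how the code ends towards the 5′ side. Summed over members, cluster A held 62.7% of the Hox FPKM in sham and cluster B 34.2%, while cluster D held 2.91% and cluster C 0.252%. Paralog groups 1 to 5 held 91.4%, groups 6 to 8 held 7.76% and groups 9 to 13 held 0.848%. Paralog group 5 alone, consisting of Hoxa5, Hoxb5 and Hoxc5, held 55.0%.

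Of the 39 genes, 18 did not pass the filter on low counts and were not tested. No counts in any library were found for 10 of them (Hoxa13, Hoxb1, Hoxb13, Hoxc11, Hoxc12, Hoxc13, Hoxd1, Hoxd11, Hoxd12 and Hoxd13), so that all 4 genes of paralog group 13, those of the limb tip and hindgut, were without a count. A further 6 (Hoxa10, Hoxa11, Hoxc6, Hoxc8, Hoxc9 and Hoxc10) had at most 3 counts in every library. Hoxa9, a gene of blood and EC progenitors, had 1 and 3 counts in sham and 6 and 2 post-PNX. Hoxb9 had 4 counts in the second sham library and 0 in the other libraries. At this depth no difference between the groups was detectable in these 18 genes.

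The genes of cluster C that passed the filter, and Hoxd10 of cluster D, had few counts, while Hoxd9 had more. Hoxc4 and Hoxc5 had between 10 and 15 counts in the sham libraries and sham levels under 0.1 FPKM. Hoxd9 had 57 and 69 counts in sham, the most of any gene of paralog groups 9 to 13, and its level of 0.334 and 0.455 FPKM overlapped that of Hoxd4. Hoxd10, studied as a brake on EC migration, had 8 and 13 counts in sham.

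**Figure D2:**
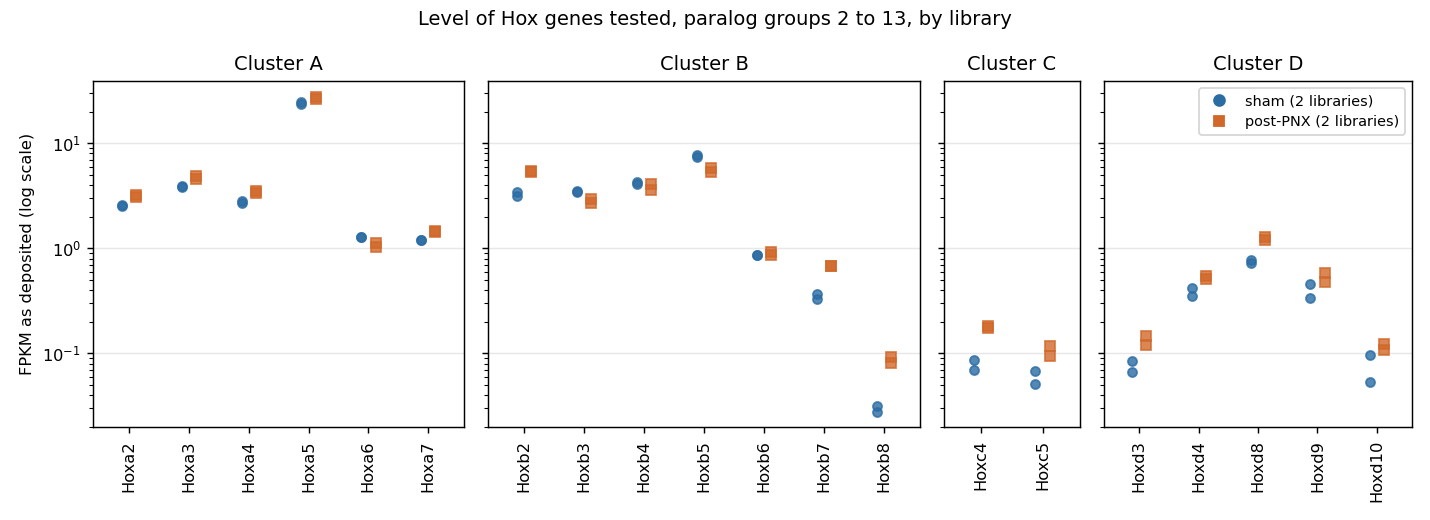
FPKM on a log scale in each library for 20 of the 21 Hox genes tested, arranged by cluster, with sham libraries as circles and post-PNX libraries as squares. Hoxa5 is highest in both groups, the squares lie above the circles for most genes, and they lie below for Hoxb3, Hoxb5 and Hoxa6.

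After PNX Hoxa5 was again the highest Hox gene, and the plot of FPKM in each library shows most of the genes tested at somewhat higher levels than in sham. The summed FPKM of all Hox genes was 56.9 and 58.4 in sham and 62.4 and 64.3 post-PNX, a ratio of 1.10. The log2 fold change was positive in 17 of the 21 genes and negative in 4, with a median of 0.40 beside 0.00 over all 16208 genes tested. The median was 0.26 without the first sham library, 0.27 over the 15 Hox genes with a mean of at least 50 counts, and 0.63 without a filter. Changes ranged from -0.45 for Hoxb5 to 1.52 for Hoxb8. Hoxb8 and Hoxd10 passed the filter on low counts only because of their post-PNX libraries. Genes that enter in this way can hardly appear as falls, and both add to the positive values and the median by selection. With edgeR's quasi-likelihood test and Benjamini-Hochberg adjustment over all genes tested, 11 of the 21 (52.4%) passed an adjusted p under 0.01, where the share among all genes was 57.1%. The genes that rose numbered 9 (42.9%, beside 29.3% of all genes) and those that fell numbered 2 (9.52%, beside 27.8%). The total share called was thus near that of any gene of this table. With libraries scaled to the endothelial marker genes, 14 rose and 1 fell. That scaling also moved the median of all genes to 0.17, so the shares given above do not apply to these counts.

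Only Hoxb8 and Hoxc4 also passed a log2 fold change beyond 1, which is 9.52% of the Hox genes tested beside 7.56% of all genes, or 5.9% counting rises alone, and both had fewer than 30 counts in every library. Of these, Hoxb8 entered the test only through its post-PNX counts, so its place in this count and among the rises is partly a product of the filter. In 16 genes both post-PNX libraries lay above both sham libraries (40.8% of all genes did so), in 3 genes they lay below (40.5% of all genes), and in Hoxb4 and Hoxb6 the groups overlapped. Groups without overlap were found in 81.2% of all genes tested. The median standard error (SE) of the log2 fold change was 0.17 for the Hox genes and 0.05 for all genes tested. With 2 libraries in a group, an exact two-sided permutation test of a single value cannot give a p below 0.33, so the sums are given without a test.

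**Figure D3:**
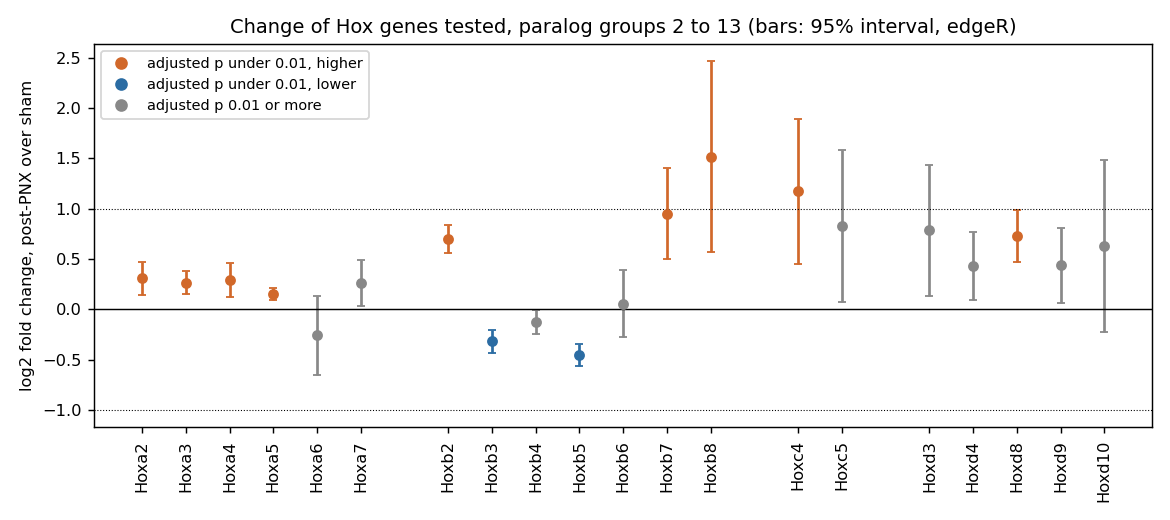
Log2 fold change of post-PNX over sham with its 95% interval from edgeR for 20 of the 21 Hox genes tested, in order of cluster and paralog group; dotted lines mark a log2 fold change of 1 in either direction. The 9 genes that rose and the 2 that fell (Hoxb3 and Hoxb5) are coloured, and the intervals are widest for the genes with the fewest counts.

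In cluster A the changes were small and, apart from Hoxa6, positive, which appears in the plot of log2 fold changes as a row of points just above 0. Hoxa5, which in ECs has been described as keeping vessels quiescent, had 3285 and 3375 normalized counts in sham and 3613 and 3805 post-PNX. Both post-PNX libraries lay above both sham libraries, as they did in 40.8% of all genes tested. The difference was a log2 fold change of 0.15 (SE 0.03, 95% interval 0.09 to 0.22, edgeR adjusted p = 1.31e-05), or 1.11-fold, and Hoxa5 held 42.6% of the Hox FPKM post-PNX.

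Hoxa3, a pharyngeal gene that promotes EC migration in wounds, had 717 and 739 normalized counts in sham and 850 and 900 post-PNX. Hoxa2, the selector of the second pharyngeal arch, had 327 and 336 against 401 and 422. Hoxa4, a gene of the cervical region, had 305 and 319 against 372 and 390. None of these 3 genes overlapped between groups, which was so for 81.2% of all genes tested. Their log2 fold changes were 0.26 (SE 0.06, edgeR adjusted p = 4.32e-05), 0.31 (SE 0.08, adjusted p = 0.000714) and 0.29 (SE 0.08, adjusted p = 0.00223). Hoxa2 and Hoxa4 no longer passed with DESeq2 or when the first sham or the second post-PNX library was left out. Exons of Hoxa3 and Hoxa4 overlap antisense transcripts over 25.5% and 16.0% of their length. The kit kept the strand but the setting used for counting is not given in the sources used here. Exons of Hoxa2 and Hoxa3 also overlap Gm28308 on the same strand over 15.0% and 10.1% of their length, so reads may be shared.

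Hoxa6 and Hoxa7, at the 5′ end of the part of cluster A that was expressed, did not pass the threshold. Hoxa7 had 172 and 171 normalized counts in sham and 207 and 204 post-PNX (log2 fold change 0.26, SE 0.11, edgeR adjusted p = 0.0381). Its exons overlap the antisense transcript Hoxaas3 over 28.8% of their length. Hoxa6 was the single gene of the cluster with a negative value, at 66.1 and 66.3 against 53.1 and 57.9 (-0.26, 95% interval -0.65 to 0.14, adjusted p = 0.249). The summed FPKM of cluster A was 35.7 and 36.6 in sham and 40.4 and 42.2 post-PNX, with no overlap.

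Clusters C and D had 1 gene each past the threshold and so could not have calls in both directions. Of clusters A and B, only cluster B had genes that passed the test in both directions. Hoxb2, a hindbrain gene next to the 3′ end of the cluster, had 374 and 414 normalized counts in sham and 642 and 634 post-PNX. Hoxb5, which in ECs has been linked to expression of the VEGF receptor Flk1, had 1038 and 1067 against 800 and 735. Hoxb3, between them on the chromosome, had 858 and 874 against 667 and 724. The groups did not overlap in any of the 3, which was so for 81.2% of all genes tested.

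The log2 fold change of Hoxb2 was 0.70 (SE 0.07, 95% interval 0.56 to 0.84, edgeR adjusted p = 3.05e-13), that of Hoxb5 was -0.45 (SE 0.05, -0.56 to -0.34, adjusted p = 6.95e-11) and that of Hoxb3 was -0.32 (SE 0.06, -0.43 to -0.20, adjusted p = 2.44e-06). The intervals of Hoxb2 and of its neighbours Hoxb3 and Hoxb5 thus lie on opposite sides of 0. When the libraries were scaled to the endothelial marker genes, Hoxb5 still fell and Hoxb2 still rose, but Hoxb3 no longer passed the threshold. Exons of Hoxb2 and Hoxb3 overlap the antisense transcript Hoxb3os over 58.5% and 70.5% of their length, and those of Hoxb5 overlap Hoxb5os over 5.28%. The share of antisense reads in these genes was not tested.

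The opposite changes can also be written as ratios between genes. The ratio of Hoxb2 to Hoxb5 in FPKM was 0.419 and 0.451 in sham and 0.934 and 1.00 post-PNX, so that Hoxb2 went from less than the level of Hoxb5 to about the same level. Hoxb2 to Hoxb3 went from 0.908 and 0.986 to 2.00 and 1.82. The ratio of the paralogs Hoxa5 to Hoxb5 was 3.20 and 3.19 in sham and 4.56 and 5.23 post-PNX. Neither library of one group reached the values of the other group in these ratios, which do not depend on how libraries are scaled. The genes of each pair had already moved in opposite directions without overlap, so this separation follows from the values above and adds no support. As shares of the Hox FPKM, Hoxb5 had 13.1% in sham and 8.73% post-PNX, and Hoxb2 had 5.70% and 8.45%.

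**Figure D4:**
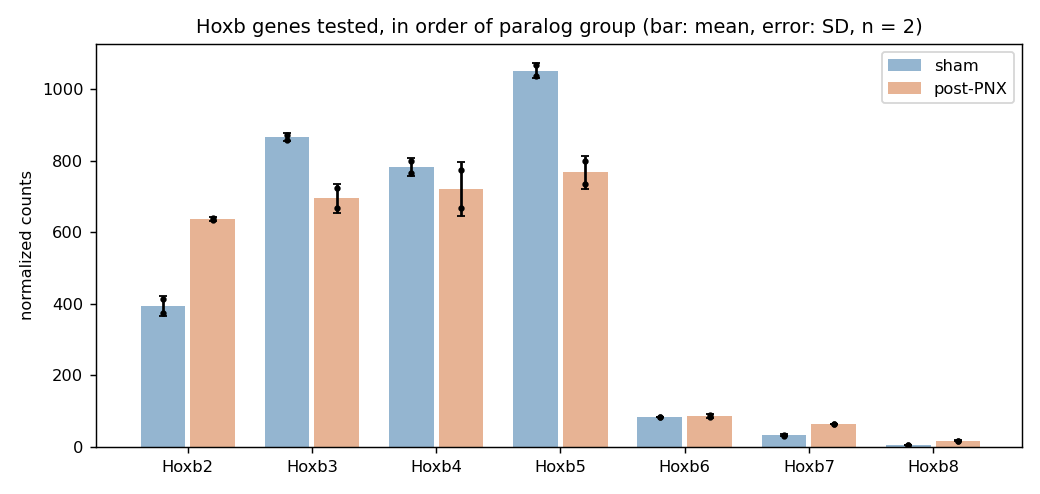
Normalized counts of the 7 Hoxb genes tested, in order of paralog group; bars are means of 2 libraries, points are the libraries and error bars are SD. Hoxb2 is higher post-PNX (642 and 634 against 374 and 414), while Hoxb3 and Hoxb5 are lower and Hoxb4 overlaps.

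The bars of normalized counts along cluster B place Hoxb4 between these changes. Hoxb4 had 800 and 766 normalized counts in sham and 668 and 774 post-PNX, and the second post-PNX library lay within the sham values. Its log2 fold change of -0.12 (95% interval -0.25 to -0.0029, edgeR adjusted p = 0.0665) did not pass, and it changed sign to 0.05 with scaling to the endothelial markers. Hoxb6 differed least of all the Hox genes, at 83.3 and 83.6 against 83.5 and 90.3 normalized counts (0.05, 95% interval -0.28 to 0.39, adjusted p = 0.785).

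The 5′ members of the cluster that were measured rose. Hoxb7, known from the ureteric bud and from growth factor expression in tumours, had 30.8 and 34.7 normalized counts in sham and 62.9 and 63.5 post-PNX (log2 fold change 0.95, SE 0.23, edgeR adjusted p = 0.000195), and it did not pass with DESeq2. Hoxb8 had 6 counts in each sham library and 18 and 14 post-PNX (1.52, SE 0.47, adjusted p = 0.0041). Both genes were separated between the groups, as were 81.2% of all genes tested. Hoxb8 lost its call whenever any 1 of the 4 libraries was left out and had no adjusted p in DESeq2. The summed FPKM of cluster B, 19.4 and 19.9 in sham and 19.1 and 19.3 post-PNX, lay lower in both post-PNX libraries and combines the falls of Hoxb5 and Hoxb3 with the rise of Hoxb2.

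In cluster C only Hoxc4 and Hoxc5 could be tested. Hoxc4 had 14 and 10 counts in sham and 26 and 24 post-PNX, without overlap (as in 81.2% of all genes tested), and a log2 fold change of 1.17 (SE 0.36, edgeR adjusted p = 0.00344). It lost its call with DESeq2 and without the second sham library or either post-PNX library. Hoxc5 had 15 and 10 counts against 24 and 17 (0.83, SE 0.38, adjusted p = 0.0475) and did not pass. The summed FPKM of the cluster was 0.170 and 0.121 in sham and 0.340 and 0.314 post-PNX, a ratio of 2.25 that rests on between 20 and 56 counts a library.

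In cluster D the gene with the highest level, Hoxd8, was the one that passed. It had 116 and 109 normalized counts in sham and 193 and 181 post-PNX, without overlap (as in 81.2% of all genes tested), and rose by a log2 fold change of 0.73 (SE 0.13, 95% interval 0.47 to 0.98, edgeR adjusted p = 1.23e-06). It kept its call under each alternative in which it was tested. Hoxd8 has been studied in lymphatic vessels, and its level post-PNX of 1.29 and 1.20 FPKM was above that of Hoxb6 (0.864 and 0.932), whereas in sham it was below. The transcript used for Hoxd8 was 1 of 3 with equal counts, so its FPKM and its order against Hoxb6 depend on the length of the one taken.

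The other members of cluster D had positive values that missed the threshold. Hoxd3, which in ECs promotes the invasive state of angiogenesis, had 20 and 14 counts in sham and 26 and 28 post-PNX (log2 fold change 0.79, SE 0.33, edgeR adjusted p = 0.0302). Hoxd4 had 87 and 65 against 103 and 85 counts (0.43, SE 0.17, adjusted p = 0.0216). Annotated exons of Hoxd3 overlap Gm28230 and Hoxd4 on the same strand over 88.0% of their length, and those of Hoxd4 overlap Gm28230 over 45.1%, so reads may be shared and the values of both genes are uncertain.

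Hoxd9 had 51.6 and 70.3 normalized counts in sham and 89.4 and 73.5 post-PNX (0.44, SE 0.19, edgeR adjusted p = 0.0365). Its log2 fold change was 0.22 without the first sham library, 0.28 without the first post-PNX library and 0.67 without the second sham library, where it passed (edgeR adjusted p = 0.0094). Hoxd10 had 8 and 13 counts in sham and 17 and 13 post-PNX (0.63, 95% interval -0.22 to 1.48, adjusted p = 0.191), an interval that includes 0 as well as changes beyond 1. The summed FPKM of cluster D was 1.66 and 1.70 in sham and 2.66 and 2.44 post-PNX, a ratio of 1.52. By paralog groups, groups 9 to 13 made up 0.848% of the Hox FPKM in sham and 1.07% post-PNX, and groups 1 to 5 made up 91.4% and 90.3%.

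Counts of cell type markers differed between the groups alongside the Hox genes. Of all genes tested 29.3% were higher and 27.8% lower, against which the following counts are to be read. Of 12 fibroblast marker genes 9 were higher and 2 lower by the same test, and their summed level was 140602 and 140755 normalized counts in sham and 311948 and 314321 post-PNX. All 8 mesothelial markers were higher (14185 and 14168 against 27343 and 27689), as were 8 of 10 smooth muscle and pericyte markers (25231 and 25464 against 34045 and 33861) and 8 of 9 macrophage and monocyte markers (23242 and 23062 against 57401 and 57547). All 10 epithelial markers were lower (428327 and 430705 against 260740 and 257744), as were 7 of 9 lymphocyte markers (6109 and 6168 against 3667 and 3397).

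Of 16 endothelial markers, 4 were higher (29.3% of all genes) and 11 lower (27.8% of all genes), with sums of 630436 and 638265 against 541361 and 544550. Of 5 lymphatic EC markers tested 2 were higher and 1 lower, of 8 progenitor and mast cell markers 2 were higher and 4 lower, and of 6 adipocyte markers tested 5 were higher and 1 lower. Adgre1 of the macrophage list was not among the deposited symbols and could not be assessed. No other marker of the fibroblast, mesothelial, muscle, macrophage or epithelial lists was at the floor of 3 counts in all libraries, which only Ccl21a of the lymphatic and Lep of the adipocyte list were. The part of these cells in the Hox levels was not tested. The pan-leukocyte gene Ptprc encodes CD45, the negative marker of the study's cell gate. It had 11597 and 11534 normalized counts in sham and 11422 and 11665 post-PNX.

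Hox proteins bind DNA together with TALE homeodomain proteins of the Pbx, Meis and Pknox families. Of 9 TALE genes tested 1 rose (29.3% of all genes did), 3 fell (27.8% of all genes) and 5 did not pass, with a median log2 fold change of -0.04. Meis1, a Hox partner in blood cells, had 4905 and 4893 normalized counts in sham and 3192 and 3163 post-PNX (-0.62, SE 0.03, edgeR adjusted p = 2.25e-28). Meis2 fell as well, from 2508 and 2476 to 1906 and 1833, and Pknox2 rose from 1154 and 1175 to 1903 and 1926 (0.72, SE 0.04). Pbx2 had the remaining call, with a log2 fold change of -0.13. The groups did not overlap in any of these 4 genes, which was so for 81.2% of all genes tested.

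Polycomb proteins keep Hox genes silent, and of 20 Polycomb genes 3 rose (29.3% of all genes), 7 fell (27.8%) and 10 did not pass, with a median log2 fold change of -0.04. The catalytic subunits went in opposite directions, as Ezh2, the form of dividing cells, had 662 and 682 normalized counts in sham and 1554 and 1622 post-PNX (1.24, SE 0.05), whereas Ezh1 had 4621 and 4720 against 3327 and 3324 (-0.49, SE 0.03). Phf19, an accessory subunit, went from 125 and 109 to 836 and 800 (2.80, SE 0.09), and Cbx7, a reader of the Polycomb mark, from 3057 and 3053 to 1527 and 1473 (-1.03, SE 0.04). These 4 genes were picked from those that passed the edgeR test. Their groups did not overlap, which was so for 81.2% of all genes tested.

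Among 14 Trithorax and related activators, which maintain active Hox genes, 3 rose (29.3% of all genes), 7 fell (27.8%) and 4 did not pass, with a median log2 fold change of -0.08. Kmt2a (Mll1), the methyltransferase best known for Hox maintenance, had 7095 and 7030 normalized counts in sham and 5217 and 5149 post-PNX (-0.45, SE 0.02, edgeR adjusted p = 3.04e-24). The acetyltransferase gene Kat6a fell by 0.50 on the log2 scale, and Dot1l rose by 0.25.

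Retinoic acid and Cdx factors set Hox domains in the embryo. Of 13 inducers and retinoid genes tested, 6 rose (29.3% of all genes) and 7 fell (27.8%), and Cdx1, Cdx2, Cdx4 and Cyp26c1 were at the floor. Cyp26b1, which degrades retinoic acid, had 60155 and 61313 normalized counts in sham and 377 and 365 post-PNX (log2 fold change -7.35, edgeR adjusted p = 4.10e-85). Aldh1a2, which makes retinoic acid, had 892 and 969 against 2198 and 2293 (1.27, SE 0.04), and the receptor gene Rarb had 452 and 421 against 284 and 300 (-0.59, SE 0.08, adjusted p = 1.02e-08). Other genes of the same steps had the opposite direction. Aldh1a1, which also makes retinoic acid and had more counts than Aldh1a2, had 22742 and 22806 normalized counts in sham and 19019 and 18741 post-PNX (-0.27, SE 0.02), and Cyp26a1, a further degrading enzyme, had 5 and 6 counts against 44 and 28 (2.80, SE 0.40), both past the edgeR threshold. Whether these levels bear on the Hox genes was not tested.

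**Figure D5:**
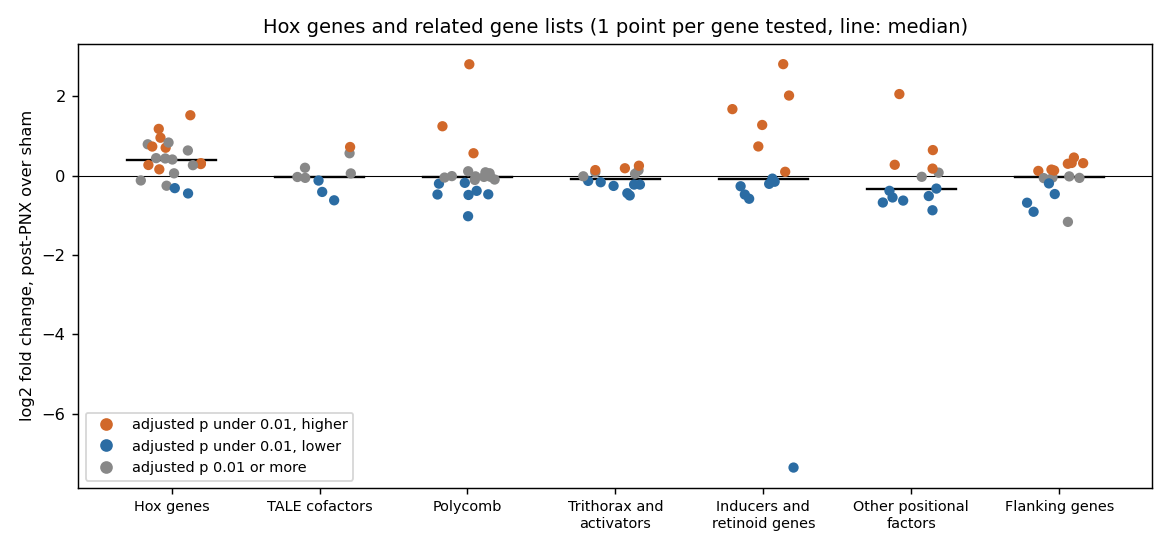
Log2 fold change of post-PNX over sham for every gene tested in the Hox clusters and in 6 related lists, 1 point per gene, with a line at the median of each list. The median is 0.40 for the Hox genes and between -0.33 and -0.04 for the other lists, and the lowest point is Cyp26b1 at -7.35.

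Lung positional factors outside the Hox clusters moved in both directions, as the plot of the lists shows. Of 13 tested 4 rose (29.3% of all genes) and 7 fell (27.8%), with a median of -0.33. Irx2 had 833 and 878 normalized counts in sham and 474 and 457 post-PNX (log2 fold change -0.87, SE 0.06, edgeR adjusted p = 4.36e-19), and Irx1, Irx5 and the lung epithelial factor Nkx2-1 fell by 0.68, 0.63 and 0.55 on the log2 scale. Foxf1, a factor of lung capillaries and mesenchyme, had 29968 and 30378 against 20747 and 21430 (-0.52, SE 0.02). Gata6 rose by 0.64. The difference between the Hox genes and these lists was described by medians alone and was not tested.

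Genes beside the clusters moved in both directions. Of 16 flanking genes tested 7 rose (29.3% of all genes), 4 fell (27.8%) and 5 did not pass, with a median log2 fold change of -0.04. Snx10, on the cluster A side, had a value of 0.32, while Skap1 and Ttll6, which flank cluster B, had -0.69 and -0.91, and Hnrnpa1 and Calcoco1 beside cluster C had 0.45 and -0.47. Evx1 and Evx2, the even-skipped genes at the 5′ ends of clusters A and D, were at the floor. Among other transcripts of the clusters, 3 were tested and 0 passed in edgeR's quasi-likelihood test or in DESeq2, while 1 (Mir10a) had an unadjusted p under 0.05 in edgeR. Mira, within cluster A, had 196 and 253 normalized counts in sham and 180 and 225 post-PNX, with overlap, and Hotair and Hottip, RNAs of the 5′ parts of clusters C and A, had no counts.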

How the data were processed

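RNA of lung ECs was measured in 4 libraries, 2 per group, each from the pooled cells of 2 mice. The mRNA kit used keeps the strand, reads were aligned to mm10, and STAR is named in the submitters' processing notes, where no version is given. The strand setting used for counting is not given in the sources used here.

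For each library the authors deposited whole-number counts on each of 33068 RefSeq transcripts, without normalization. The authors also deposited an FPKM value, which divides by length and by the sum of counts over all transcripts, and a TPM value for each transcript. Reads shared by transcripts were counted on each of them, so 1 transcript per symbol was used; for Hoxd8, Hoxa9 and Hoxa10 it was the first of several with equal counts. FPKM served for levels between genes and TPM as an alternative.

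Counts were tested in R 4.3.3 with edgeR 4.0.16 (filterByExpr, TMM, quasi-likelihood F test without covariates, Benjamini-Hochberg adjustment over 16208 genes), with thresholds of adjusted p under 0.01 and, for the stricter call, a log2 fold change beyond 1. The SE is the log2 fold change divided by the square root of F, and normalized counts are scaled to the mean library size. An SE obtained in this way can fall below counting error for very large changes, so none is given for Cyp26b1. The steps were tested on simulated data. Replicate libraries of a group differed by more than sampling noise (mean chi-square per gene 1.76 and 1.52). The same value was 133 between the first sham and the first post-PNX library. The median SD within a group was only 0.036 on the log2 scale. Whether p covers more than the spread between these pools cannot be told from 2 libraries a group.

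Every Hox gene that passed the filter is named with its values, except 1 that is not reported here and enters counts and sums alone. Of the other lists, up to 5 genes with the largest change among those called whose mean normalized count reached 100, and the gene with the most counts, could be named, while Aldh1a1, Cyp26a1, Mir10a, Mir10b, Hotair, Hottip and genes at the floor were named after their values were seen. The members, lists and thresholds were chosen with earlier results of these data known. Alternatives were DESeq2 1.42.0 (size factors and Wald test), library size alone, scaling to the endothelial markers, other filters, a replicate block, summed transcripts, glmTreat, an adjusted p of 0.05, and each library left out. Overlaps of exons were computed from GENCODE M21, on the same build. Promoter and miRNA sequences came from RefSeq tables on GRCm38.p6. Tables and figures were made with Python 3.11.15, pandas 2.3.3 and matplotlib 3.10.9.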

Additional observations from a re-analysis of the deposited data

How the results depend on the processing

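Of the 11 Hox genes called, 11 were called with DESeq2's size factors, with library size alone, without a filter and with the replicate number as a block; the replicate block changed no call of a Hox gene, and the numbers do not pair libraries (correlation of deviations 0.02). Only 6 were called by DESeq2's Wald test (4 higher) and 17 at an adjusted p of 0.05 (15 higher). The shares of all genes called under the alternative settings are not given here. Scaling to the endothelial markers moved the median of all genes by 0.17, gave 14 higher and 1 lower Hox genes and a Hox median of 0.57, raised the TALE count to 7 and reversed Hoxb4 to 0.046; less that shift the Hox median was 0.40, as before. The Hox median was 0.63 without a filter, 0.27 with a mean of at least 50 counts and between 0.26 and 0.47 without 1 library, lowest without the first sham library. Leaving out 1 library gave between 8 and 10 calls in all and between 5 and 8 higher, the fewest without the second post-PNX library, where Hoxb4 passed as a fall; Hoxd9 passed as a rise without the second sham library. The count beyond a log2 fold change of 1 went from 2 to 1 with summed transcripts, to between 0 and 1 without 1 library, and to 0 with DESeq2, with glmTreat and with a mean of at least 50 counts. Other cluster transcripts had 1 call at an adjusted p of 0.05. The log2 ratio of the summed Hox level, 0.14 in FPKM, was 0.094 in TPM and 0.11 in TMM-normalized counts; cluster A had 0.15 in TPM (0.19 in FPKM), cluster B -0.079 in TPM and -0.11 in counts (-0.04 in FPKM), and cluster C between 0.94 and 1.44 without 1 library. The cause of these differences was not tested. Depth limits the genes under 30 counts in every library, which among those tested are Hoxb8, Hoxc4, Hoxc5, Hoxd3 and Hoxd10.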
